A study of Mus musculus with 10 samples.

Results

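The genes described here encode subunits of the GABA-A receptor: Gabra2, Gabra3, Gabra4, Gabra5, Gabrb1, Gabrb2 and Gabrd. They were chosen by gene symbol, as synaptic and extrasynaptic subunits, and all 7 were found among the 13661 genes of the authors' deposited table. The table compares cortices of 8-week-old males, with 5 libraries labelled wild-type (WT) and 5 labelled Chd8 KI, a knock-in made to model duplication of the chromatin remodeller gene Chd8. Not given in the sources used here were the strain, the insertion site, the promoter that drives the added copy and the number of founders or lines. The table holds 1 mean over all libraries, 1 log2 fold change and 1 standard error per gene, so values of single libraries were not analysed here and no depth per library is known. No column name says which group is the numerator. Fold changes were read as KI over WT, since Chd8 then comes out higher, at a log2 value of 0.49 (standard error, SE, 0.10) with an adjusted p of 0.0044 from DESeq2 in the authors' deposited table.

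GABA-A receptors are chloride channels that open when they bind GABA, the main inhibitory transmitter of the cortex, and each is a pentamer of subunits. Most synaptic receptors combine alpha, beta and gamma subunits and give fast inhibitory currents, while receptors with the delta subunit, usually beside alpha4 in the forebrain, and many receptors with alpha5 lie outside the synapse and give tonic inhibition. The alpha subunit shapes where a receptor sits and how it responds to benzodiazepines, and the genes lie in clusters that are shared with other mammals.

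The data show no detected change in these subunits in KI cortex. None of the 7 genes had an adjusted p under 0.05 by DESeq2 in the authors' deposited table, against 0.0732% of all 13660 genes with a p-value (10 genes). None had an unadjusted p under 0.05 either, against 3.22% of all genes, and the smallest unadjusted p was 0.422, for Gabra2. Their log2 fold changes ran from -0.051 to 0.082 with a median of 0.014, beside a median of 0.0025 over all genes tested. The values were positive for 5 genes and negative for 2, and 51.6% of all genes were positive. These are the authors' DESeq2 estimates, with 95% normal intervals computed from the deposited standard errors.

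The sequences before the transcription starts are shown first for the genes where the annotation bears on how their reads can be counted or on how their starts differ. RefSeq's table for GRCm38.p6 gave start windows for 6 of the 7 genes, and Gabrd is the gene without an entry. Gabra4 and Gabrb1 lie head to head on chromosome 5, on opposite strands, and their annotated spans overlap at the 5′ ends by 388 bases, from 71657921 to 71658308. Gabrb1 has a further start at 71699932. The stretch before that start and the stretch before the Gabra4 start are printed 5′ to 3′ in the direction of transcription, with 30 bases before a Gabrb2 start. Capitals mark the NRF1 core CGCATGCG in Gabrb1, the GC box GGGCGG (here on the opposite strand, as CCGCCC) in Gabra4 and the TATA box TATAAA in Gabrb2.
Gabrb1, chr5:71699682-71699931, plus strand: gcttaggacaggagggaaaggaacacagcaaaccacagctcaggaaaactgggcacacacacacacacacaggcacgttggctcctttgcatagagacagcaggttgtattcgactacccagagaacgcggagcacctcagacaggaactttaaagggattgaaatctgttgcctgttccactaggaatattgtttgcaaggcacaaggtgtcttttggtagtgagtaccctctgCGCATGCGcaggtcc
Gabra4, chr5:71658364-71658558, minus strand: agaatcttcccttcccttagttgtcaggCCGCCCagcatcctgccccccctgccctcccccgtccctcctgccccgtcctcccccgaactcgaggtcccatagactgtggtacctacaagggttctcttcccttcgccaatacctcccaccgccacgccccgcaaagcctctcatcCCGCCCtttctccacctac
Gabrb2, chr11:42420398-42420427, plus strand: tccccctcctgcTATAAAtagctggactag

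The starts of the subunit genes differed in these letters. Windows of 250 bases before each start listed by RefSeq were searched on both strands. There were 10 for the 6 genes, because Gabra3, Gabrb1 and Gabrb2 have several listed starts. They were set beside 32851 windows of all genes in the same RefSeq table. Not every annotated 5′ end has a window. The Gabra5 span ends at 57591016, but its listed start is 57510059. The Gabrb2 span begins at 42419515, but its first listed start is 42420440. Bases before those outer ends were not searched. The NRF1 core, which begins 15 bases before the Gabrb1 start printed above, was found in no other of the 10 windows and in 1.55% of all windows. NRF1, nuclear respiratory factor 1, has been tied to transcription of the beta1 subunit gene in neurons. The TATA box, 30 bases before the Gabrb2 start, was also found in the opposite orientation in the overlapping windows of both Gabra3 starts, and in 12.4% of all windows. The GC box was found before starts of Gabra2, Gabra4 and Gabrb2 and in 32.7% of all windows. No window of the 6 genes held the cyclic AMP response element core TGACG or the EGR site GCGTGGGCG, which 17.8% and 0.536% of all windows held. The window before the Gabra2 start was 70.0% G and C with 18 CpG dinucleotides, whereas both Gabra3 windows held none, at 39.2% and 42.4% G and C. The window before the Gabrb1 start at 71657921 also held 18, at 64.4%, and that before the Gabrb1 start printed above held 6, at 50.8%. The other windows of the 6 genes held from 4 (Gabrb2) to 12 (Gabra4). All windows together had medians of 52.4% and 6 CpG dinucleotides. In the authors' deposited table Nrf1 itself stood at a log2 fold change of -0.13 (SE 0.089), and Egr3, an immediate early factor known to activate Gabra4, stood at -0.12 (0.083), neither past the threshold. These 2 factors were chosen after values were seen.

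The receptor's subunits were present at very different levels. Per kilobase of the longest GENCODE transcript, Gabrb2, encoding the beta2 subunit of many synaptic receptors of adult cortex, had the highest level of the 7 at 1763 mean normalised counts per kb in the authors' deposited table. Gabra3, whose alpha3 subunit is found at synapses of deep cortical layers and of several subcortical nuclei, stood at 824 per kb. Gabra4, encoding the alpha4 subunit that benzodiazepines such as diazepam do not act on, stood at 734 per kb, Gabra5 at 618 per kb and Gabrd at 553 per kb. Gabra2, whose alpha2 subunit is enriched at the axon initial segment of pyramidal cells, was much lower at 120 per kb, and Gabrb1 was the lowest at 32.8 per kb. With the length of all merged exons instead, a choice added after seeing the data, Gabra4 ranked behind Gabra5 and Gabrd (496, 555 and 521 per kb), so the order of these 3 is not settled. The other 4 kept their places among the 7, with Gabrb2 at 1106, Gabra3 at 769, Gabra2 at 92.2 and Gabrb1 at 32.5 per kb. Merged exons are never shorter than the longest transcript, so this choice could only lower a level. Which transcripts were present and which annotation was counted are not known, and shorter lengths were not tried. The places of these 4 therefore hold for these lengths only. These are means over WT and KI libraries together, with no SD available, and they describe mRNA in whole cortex, not the makeup of receptors.

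**Figure D1:**
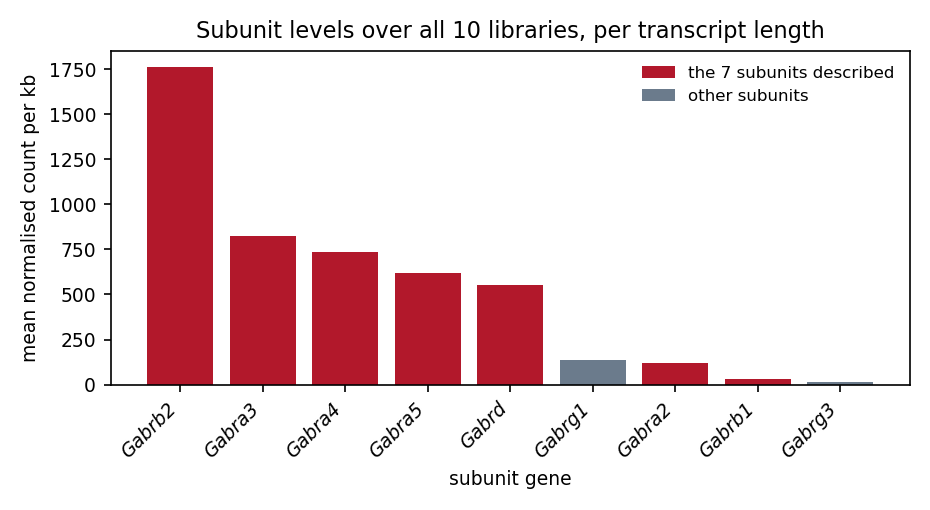
Mean normalised counts per kilobase of the longest transcript for 9 GABA-A subunit genes of the authors' deposited table, over all 10 libraries, ordered by level. The 7 genes described are in red, from Gabrb2 at 1763 to Gabrb1 at 32.8 per kb, and Gabrg1 (134 per kb) and Gabrg3, the lowest bar, are in grey.

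Among the alpha genes, Gabra2 (gene 14395; chromosome 5, 70958392 to 71095849, GRCm38) had a mean normalised count of 705 and a log2 fold change of -0.051 (SE 0.063) in the authors' deposited table. Its 95% interval ran from -11.4% to 5.20%, as change in KI relative to WT. Gabra3 (14396; chromosome X, 72432676 to 72656919) had a mean of 3017 and a log2 fold change of -0.047 (0.075), with an interval from -12.5% to 7.14%, again from the authors' deposited table. These were the 2 genes with negative values, and each differed from no change by less than its standard error. Gabra4 (14397; chromosome 5, 71569734 to 71658308), with nearly the same mean as Gabra3 at 3016, stood at 0.023 (0.058) in the authors' deposited table, an interval from -6.05% to 9.86%. Gabra5 (110886; chromosome 7, 57407669 to 57591016), the alpha subunit best known from the hippocampus, stood at 0.014 (0.052) in the authors' deposited table with a mean of 1650 and an interval from -5.96% to 8.34%. As a class, the 4 alpha genes had 2 values on either side of 0.

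Of the beta genes, whose subunits carry part of the GABA binding site and the site for several anaesthetics, Gabrb2 (14401; chromosome 11, 42419515 to 42632591) was the most abundant of the 7, with a mean normalised count of 7034 in the authors' deposited table. Its log2 fold change was 0.017 (SE 0.052) in the same deposited table, and its interval ran from -5.75% to 8.64%. Gabrb1 (14400; chromosome 5, 71657921 to 72149572) had the largest value of the 7, a log2 fold change of 0.082 (0.11) at a mean of 450 in the authors' deposited table. It was also the least precise, with an interval from -9.43% to 23.6% and an unadjusted p of 0.476. Its longest transcript has 13737 bases, and with the trend of fold change with transcript length removed its value was 0.018. Over the 13098 genes with a length, log2 fold change over standard error had a Spearman rank correlation of 0.248 with transcript length.

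Gabrd (14403; chromosome 4, 155384979 to 155398098), which encodes the delta subunit of extrasynaptic receptors sensitive to neurosteroids, had the value closest to 0. The authors' deposited table gives it a mean normalised count of 1497 and a log2 fold change of 8.1e-05 (SE 0.058), an interval from -7.58% to 8.21%. The 3 genes of mainly extrasynaptic subunits, Gabra4, Gabra5 and Gabrd, thus lay between 8.1e-05 and 0.023. The other 4 genes, Gabra2, Gabra3, Gabrb1 and Gabrb2, spread from -0.051 to 0.082 with a median of -0.015. Whether subunits differed from each other in their response was not tested, because that needs values of single libraries. All 7 intervals held 0, and every value between -0.085 and 0.073 on the log2 scale lay inside all of them.

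**Figure D2:**
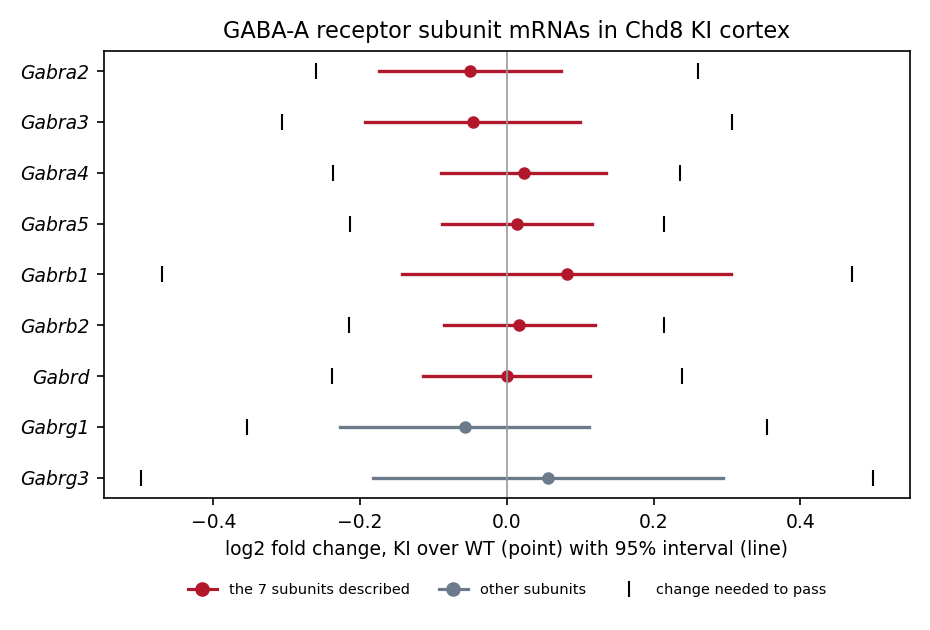
Log2 fold change of KI over WT (points) with 95% normal intervals (lines) for 9 GABA-A subunit genes, the 7 described in red and Gabrg1 and Gabrg3 in grey. Black ticks mark the change that each gene would have needed to pass the threshold at its own standard error, from 0.21 for Gabra5 to 0.47 for Gabrb1 among the 7, and every interval lies inside its ticks.

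The precision of these values sets what could have been seen. With all other p-values as deposited, a further gene would have been called at an unadjusted p of up to 4.0e-05, an absolute Wald score of 4.11. At its own standard error, Gabra5 would have reached that score with a log2 change of 0.21, Gabrb2 with 0.21, Gabra4 with 0.24, Gabrd with 0.24, Gabra2 with 0.26, Gabra3 with 0.31 and Gabrb1 with 0.47. Estimates smaller than these would not have been called at that threshold. The 95% interval lay within ±0.25 on the log2 scale for 6 of the 7 genes, all but Gabrb1, and for 54.9% of all genes, and within ±0.5 for all 7 and for 88.5% of all genes. Precision depends on abundance, and the 7 genes had means from 450 to 7034 beside a median of 549 over all genes.

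Genes with like means still differed in their standard errors. That of Gabra3 was 1.35 times and that of Gabrb1 1.31 times the median of genes within 0.25 log2 units of their means, while those of Gabra2 and Gabra5 were 0.824 and 0.842 times it. Those of Gabra4, Gabrb2 and Gabrd were 1.04, 1.03 and 0.926 times it. If the authors' model held genotype alone and the libraries had like depths, the standard errors correspond to a coefficient of variation between libraries of a group, beyond counting, of 5.15% for Gabra5, 5.61% for Gabrb2, 5.81% for Gabrd, 5.82% for Gabra2, 6.04% for Gabra4, 7.97% for Gabra3 and 11.6% for Gabrb1. DESeq2 draws such estimates toward those of genes with like means, so they are no direct reading of the spread between mice.

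**Figure D3:**
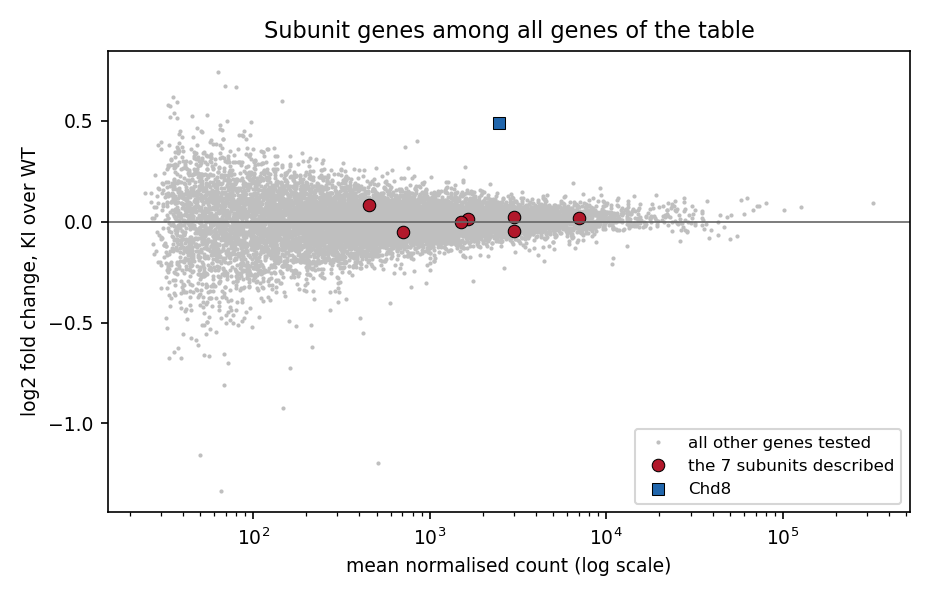
Log2 fold change of KI over WT against mean normalised count (log scale) for all 13660 genes tested in the authors' deposited table (grey), with the 7 subunit genes in red and Chd8 as a blue square. The 7 genes lie between -0.051 and 0.082 inside the main body of genes, and Chd8 lies at 0.49.

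Gabrg1 and Gabrg3, the rarer gamma genes, gave no call either. They stood at log2 fold changes of -0.058 (SE 0.086) and 0.056 (0.12) in the authors' deposited table, with unadjusted p-values of 0.504 and 0.645 from DESeq2. Their means were 638 and 137, so their values are among the less precise of the family. Gabra6, Gabre, Gabrp, Gabrq, Gabrr1, Gabrr2 and Gabrr3 were not among the 13660 genes with a p-value, so they were not analysed here.

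By position, Gabra2, Gabra4 and Gabrb1 lie in 1 cluster on chromosome 5. It runs Gabrg1, Gabra2, Gabra4, Gabrb1, with log2 fold changes of -0.058, -0.051, 0.023 and 0.082 in the authors' deposited table, a range of 0.14. Gabrb1 is on the plus strand and the alpha and gamma genes are on the minus strand. The intervals of all 4 held 0, so the order of values along the cluster is not a called difference. On chromosome 7 Gabra5 neighbours Gabrg3, on chromosome 11 Gabrb2 neighbours Gabra6, and on the X chromosome Gabra3 lies between Gabre and Gabrq. Gabrd stands apart on chromosome 4, inside a dense stretch of unrelated genes.

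Some of these genes share bases with a neighbour on the opposite strand, and no source used here says whether reads were counted by strand. Exons of Gabra4 and Gabrb1 share 46 bases in GENCODE M21, and exons of Gabra5 share 148 bases with those of the long non-coding RNA gene Gm9962. The spans of Gabrd and Cfap74, a cilia and flagella gene, overlap by 6000 bases, with no exon base shared in that annotation. In the authors' deposited table Gm9962 had a mean normalised count of 41.8 and a log2 fold change of 0.14 (SE 0.20), and Cfap74 a mean of 267 and 0.068 (0.13). Their means are below the 1650 of Gabra5 and the 1497 of Gabrd, but the mean of a neighbour does not measure shared reads. In the pair of Gabra4 and Gabrb1 both are subunit genes, and Gabrb1 is the weaker, with a mean of 450 beside 3016. How far shared bases enter the value of Gabrb1 or of any other gene here was not tested. Reads from the shared bases cannot be told apart without strand.

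**Figure D4:**
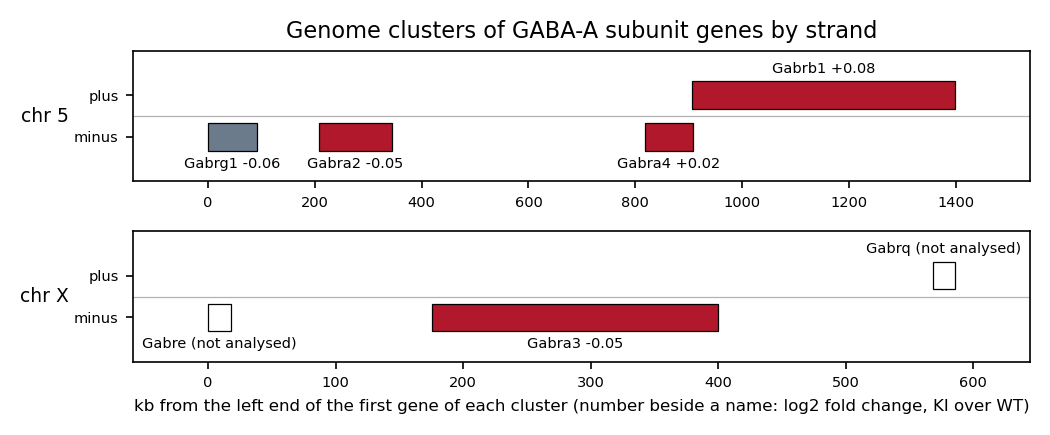
GABA-A subunit genes in the clusters of chromosomes 5 and X, drawn to scale in kb from the left end of each cluster, with plus-strand genes above and minus-strand genes below the line. Red boxes are genes described here, the grey box is Gabrg1 and white boxes are genes not analysed here, and the number beside a name is its log2 fold change (KI over WT), from -0.06 for Gabrg1 to 0.08 for Gabrb1.

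Proteins that anchor, assemble and carry GABA-A receptors showed no called change either. Of 25 such genes examined, all in the table, 15 were positive and 10 negative with a median log2 fold change of 0.022. None passed the threshold, against 0.0732% of all genes. None had an unadjusted p under 0.05, against 3.22% of all genes (the authors' DESeq2). Gephyrin (Gphn), the scaffold of inhibitory synapses, stood at 0.041 (SE 0.050), and Nlgn2, the neuroligin of inhibitory synapses, at 0.030 (0.038) in the authors' deposited table; both were named for their roles after their values were seen. Kif5a, a kinesin that carries receptors to the surface, and Nsf, a fusion factor, had the highest means and stood at 0.056 (0.045) and -0.014 (0.034) in the same deposited table.

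Genes for GABA supply and for the other receptors of the pathway gave no calls. Of 8 genes examined for GABA synthesis, transport and breakdown 7 were in the table, 1 positive and 6 negative, with a median log2 fold change of -0.10. The lowest unadjusted p among them, 0.041, belonged to Slc6a11, encoding the astrocytic transporter GAT-3, at -0.13 (SE 0.063) in the authors' deposited table, beside -0.016 (0.051) for the GABA-synthesising enzyme Gad1 and -0.027 (0.045) for Abat, the GABA transaminase. The 6 genes of metabotropic GABA-B receptors and their auxiliary subunits had a median of -0.019, with Gabbr1 at -0.024 (0.029) and Gabbr2 at -0.014 (0.044) in the authors' deposited table. The 11 genes of the chloride gradient, which sets the direction of GABA-A currents, had a median of 0.0052, and Slc12a5, encoding the extruder KCC2, stood at 0.023 (0.048) and Clcn3, a chloride-proton exchanger of vesicles, at -0.012 (0.040) in the authors' deposited table. Genes of neurosteroid synthesis, a pathway with end products that act on delta receptors, had a median of 0.075 over 6 of 8 genes. Their means were at most 316. The steroid reductase family genes Srd5a3 and Srd5a1 had the highest means of them and stood at 0.0067 (0.097) and -0.094 (0.085) in the authors' deposited table. Glycine receptor genes had a median of -0.026 over 3 of 5, with Glrb at -0.026 (0.053) and Glra2 at 0.068 (0.12) in the authors' deposited table. None of these genes passed the threshold, against 0.0732% of all genes, and no direction is read from the medians.

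Cell type markers bear on values from whole cortex, where fewer cells of a type and less RNA per cell cannot be told apart. Markers of cortical projection neurons were present, Slc17a7 with a mean normalised count of 28078 and Tbr1 with 2843 in the authors' deposited table, markers that fit the labelled tissue. Over all genes tested, 51.6% were positive, 3.22% had an unadjusted p under 0.05 by DESeq2 and 0.0732% passed the threshold. Excitatory neuron markers were positive for 12 of 15 genes (median log2 fold change 0.042) and inhibitory neuron markers for 7 of 20 (median -0.056). None of either list passed the threshold. Their median transcript lengths were 4137 and 2839 bases, beside 3565 over all genes. How far transcript length enters these signs was not tested. In the excitatory list 3 genes had an unadjusted p under 0.05 in the authors' deposited table: Nr4a2 at 0.22 (SE 0.065), Camk2a at 0.12 (0.042) and Slc17a6, which the thalamic list also holds, at -0.32 (0.11), beside Slc17a7 at 0.062 (0.039). In the inhibitory list none had, and Gad2, second to Gad1 in mean, stood at -0.10 (0.083) in the authors' deposited table. Thalamic markers, from a subcortical tissue that expresses Gabra4, Gabrb2 and Gabrd, were negative for 13 of 15 genes (median -0.38). Of the 15 thalamic genes 10 had an unadjusted p under 0.05, and 4 passed the threshold as lower in the authors' deposited table: Tnnt1 at -1.34, Prkcd at -1.20, Tcf7l2 at -0.92 and Ramp3 at -0.40. Beside them Gabra4, Gabrb2 and Gabrd stood at 0.023, 0.017 and 8.1e-05. Striatal markers were negative for 14 of 14 (median -0.13) and hippocampal markers positive for 8 of 13 (median 0.030), beside 0.014 for Gabra5, with no call in either list. Unadjusted p-values under 0.05 in the authors' deposited table belonged there to the striatal genes Six3 at -0.35 (0.14) and Isl1 at -0.50 (0.26) and to the hippocampal gene Dsp at 0.60 (0.17). The markers with the highest means stood closer to 0 in the authors' deposited table, with Ppp1r1b at -0.091 (0.077) and Pde10a at -0.043 (0.11) for striatum, and Nptx1 at 0.044 (0.056) and Calb1 at -0.024 (0.067) for hippocampus. Markers of meninges and choroid plexus were negative for 13 of 13 genes (median -0.28). Of these, 7 had an unadjusted p under 0.05 in the authors' deposited table, against 3.22% of all genes. Only Igf2 passed the threshold, as lower, against 0.0732% of all genes. Oligodendrocyte markers were negative for 10 of 10 (median -0.074), with 2 under 0.05 and no call. The part of these tissues and cells in the subunit values was not tested.

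**Figure D5:**
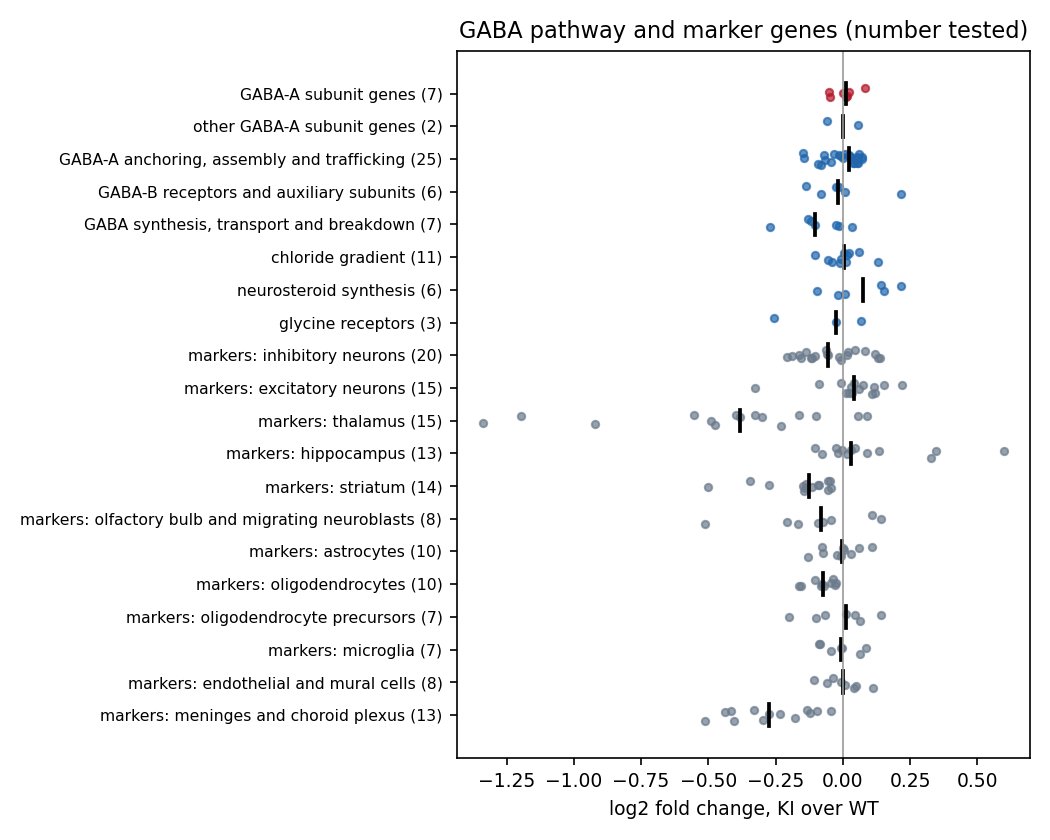
Log2 fold change of KI over WT for each gene of the GABA pathway lists (red and blue) and the cell type and tissue marker lists (grey), with black bars for list medians and the number of genes tested in parentheses. The 7 subunit genes lie between -0.051 and 0.082 around a median of 0.014, while thalamic markers reach -1.34 with a median of -0.38.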

How the data were processed

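Poly(A) RNA of mouse cortex was sequenced. Per the submitters' processing notes, the tools were Trimmomatic 0.39, HISAT2 2.1.0, featureCounts 2.0.0 and DESeq2 1.26.0 with mm10. Not given in the sources used here were settings, annotation, strand, filters and model formula. Per the file headers, the authors deposited for each gene the mean normalised count (a signal over all libraries), the log2 fold change and its standard error on the log2 scale, the Wald score, and the p-value and adjusted p-value. The score equalled log2 fold change over standard error for all 13661 genes, and the adjusted p equalled a Benjamini-Hochberg adjustment over 13660 (tolerance 1e-06). The lowest mean was 24.4. A planned count model could not be run on it, so the authors' results were used, at a threshold of 0.05.

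RefSeq GRCm38.p6 named 13497 genes by gene number, leaving 164 unnamed, and GENCODE M21 gave transcript lengths for 13098. Intervals, levels per kb and lowess trends (span 0.3) were computed in Python 3.11.15 with statsmodels 0.14.6 and scipy 1.17.1, and the adjustment was tested on simulated data. All 7 members were named, and of each list described in the results those with an unadjusted p under 0.05 (lowest p first) and then the 2 with the highest mean, at most 4 genes a list. Outside this rule, Tbr1 is named to check the tissue, Cfap74 and Gm9962 for their overlaps, and others as marked. Members and lists were chosen with earlier results of these data known. Of 20 lists, some are given here only, as median log2 fold changes with no gene named. These are astrocytes (-0.0038), oligodendrocyte precursors (0.013), microglia (-0.0062), vessels (0.0014) and olfactory bulb (-0.083), none with a call. For oligodendrocytes (-0.074) and for meninges and choroid plexus (-0.28), counts are given in the results. The naming rule was not applied to them, and no gene but Igf2 is named. Some genes of the planned lists are not reported here and were left out of the list counts.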

Additional observations from a re-analysis of the deposited data

How the results depend on the processing

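No subunit gene of the 7 was called at adjusted p thresholds of 0.1 or 0.01, with means of at least 50 or 200, or with scores divided by their robust SD of 0.855, a setting that raised the calls over all genes from 10 to 23. The smallest adjusted p of a subunit gene was 0.997 under that last setting. The median log2 fold change of 0.014 became 0.011 less the median of all genes, 0.012 less the trend with transcript length, 0.0032 less the trend with mean count, 0.0018 as a mean weighted by precision, and 0.014 over 9 subunit genes. Gabrd changed sign, from 8.1e-05 to -0.0024 less the median of all genes and to -0.0043 less the trend with mean count, and each move is far inside its standard error of 0.058. The other 6 genes kept their sign under these 3 adjustments of single genes, but some values moved by over 1.5 times. Less the trend with mean count, Gabrb2 went from 0.017 to 0.0032, Gabra4 from 0.023 to 0.014 and Gabra5 from 0.014 to 0.0083. Less the trend with transcript length, Gabrb1 went from 0.082 to 0.018 and Gabra5 to 0.021. Each of these moves is smaller than the gene's standard error. No paired analysis was possible because the table holds no values of single libraries, and for the same reason leaving out replicates, other size factors and count filters were not run. Depth is unknown.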
